A study of Caenorhabditis elegans with 2 samples.

Results

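The FOS-1 peaks on the X chromosome of Caenorhabditis elegans are described here. They are the calls on X in the deposited list thresholded by irreproducible discovery rate (IDR), which measures how well the ranks of peaks repeat between replicates. Of 7446 peaks in that list, 1555 lie on X and 5891 on the 5 autosomes. They come from chromatin immunoprecipitation followed by sequencing (ChIP-seq) of an eGFP fusion of FOS-1. The 2 biological replicates form 1 group of whole L2 larvae of strain OP304, genotype unc-119(ed3) III; wgIs304. In this strain wgIs304 is an integrated transgene that carries the tagged fos-1 beside the native gene, and no strain without the tag is among the samples. The labels give the sex as pooled male and female, with the share of males not stated. Males carry a single X and hermaphrodites a pair, so the X copies per genome in the chromatin are unknown, and their part in the signal on X was not tested. The signal of a peak is the authors' own value from peak calling, and the read depth behind it is unknown. Tests run over peaks or genes, which are not replicates of a condition, so p-values and 95% intervals cover counting error only. They also treat summits as independent. In the 17 full bins of 1 Mb on X, the variance of the summit counts was 4.38 times their mean. P-values for counts against bases can therefore be too small.

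FOS-1 is the worm member of the Fos family of basic leucine zipper (bZIP) proteins. Paired with Jun or another bZIP protein, Fos binds the AP-1 site. The gene fos-1 is best known from the anchor cell, which needs it to breach the basement membrane on its way to the vulva. The X chromosome is set apart by dosage compensation. In hermaphrodites a complex related to condensin is loaded onto X at recruitment elements and lowers transcription along the chromosome. These elements hold a sequence called the MEX motif, whose core is CGCAGGG. X is poor in genes expressed in the germ line and in essential genes, and it carries many genes of tRNAs, neurons and signalling.

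The sequences around some X summits are shown first, as examples of strong X peaks and of the patterns they hold. They do not show how often a pattern occurs on X. A summit is the position within a peak that the deposited list marks as its highest point. Positions are on ce11 (WBcel235), counted from 1, and the first windows span 50 bp to each side of a summit on the plus strand. Capitals mark matches to the patterns counted below, on either strand. The window at cebp-1 (chrX:1454599-1454699), at the strongest peak of the whole list, holds GACGCAGA once on each strand. The window at F20D1.3 (chrX:14975772-14975872) holds the AP-1 site TGACTCA, and that in an intron of ncr-1 (chrX:4478652-4478752) holds an AP-1 site and, on the minus strand, the extended GATA site TGATAAG. The window at sir-2.2 (chrX:13329025-13329125) holds the repeat GAGAGAG on the minus strand. The window at puf-9 (chrX:5841247-5841347), at the peak ranked 4 on X, holds none of the 8 patterns.
cebp-1: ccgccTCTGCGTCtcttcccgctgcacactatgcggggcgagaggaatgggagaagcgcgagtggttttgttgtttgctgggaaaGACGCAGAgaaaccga
F20D1.3: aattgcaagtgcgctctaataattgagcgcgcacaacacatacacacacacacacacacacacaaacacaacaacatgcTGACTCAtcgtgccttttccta
ncr-1: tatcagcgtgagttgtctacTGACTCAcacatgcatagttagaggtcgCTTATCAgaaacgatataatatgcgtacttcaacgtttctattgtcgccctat
sir-2.2: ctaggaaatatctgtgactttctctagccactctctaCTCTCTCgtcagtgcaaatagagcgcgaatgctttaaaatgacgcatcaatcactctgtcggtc
puf-9: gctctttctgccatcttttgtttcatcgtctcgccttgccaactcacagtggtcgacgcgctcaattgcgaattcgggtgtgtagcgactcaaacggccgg

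The MEX core lay within 50 bp of 18 X summits, and the 10 of highest signal are shown next because 9 of the 25 peaks outside promoters among the 50 strongest X peaks held it. Each line gives 30 bases of chromosome X on the strand that reads CGCAGGG, named by the gene whose transcript start is nearest to the summit. The core is in capitals.
W02H3.3 (11094215 to 11094244, minus strand): gggaaccattcgCGCAGGGacacctcactg
gtr-1 (806663 to 806692, plus strand): gtgcgattatcgCGCAGGGgtgtttgttgc
F20B6.9 (4209255 to 4209284, minus strand): ttgccgctatcgCGCAGGGacacctctttc
nspc-17 (14525889 to 14525918, minus strand): tattgcctatcgCGCAGGGacagatgtggt
mom-1 (6296537 to 6296566, plus strand): atttacatttggCGCAGGGggtcaccatag
Y41G9A.17 (2997112 to 2997141, minus strand): ttaaatttatcgCGCAGGGaggaagtagcc
F55G7.5 (11937530 to 11937559, plus strand): gggaggtacaaaCGCAGGGaagagaattaa
F22H10.2 (16682161 to 16682190, minus strand): aagaaaacatcgCGCAGGGaacatcaaatt
xol-1 (8036390 to 8036419, minus strand): aattttttatcgCGCAGGGacgtatgtcga
ins-39 (1345045 to 1345074, plus strand): caatgtcattcgCGCAGGGcagctgagccc

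X held more FOS-1 summits for its length than any autosome. Its density was 87.8 summits per Mb, against 71.4 over the autosomes together and 64.3 to 81.9 on single autosomes. X held 20.9% of summits (19.98 to 21.8) and 17.7% of nuclear bases, a ratio of 1.18 (exact binomial p = 1.27e-12). That p-value treats summits as independent, although their counts along X were uneven. Per 1000 protein-coding genes there were 569.4 summits on X and 341.7 on the autosomes, since X holds 154.1 such genes per Mb and the autosomes 208.9. X peaks were found as often among the strong calls of both replicates as autosomal ones, at 1240 of 1555 or 79.7% on X and 79.4% on the autosomes (Fisher's exact p = 0.805, adjusted p = 0.805 over 14 comparisons of X with autosomes). The odds ratio was 1.02, with an interval of 0.887 to 1.17. Among the strongest 7446 calls of each replicate the share on X was 20.7% in replicate 1 and 21.03% in replicate 2. The excess was not particular to the thresholded calls: 4398 of 20145 pooled calls outside the IDR peaks, or 21.8%, also lay on X. Against these low-ranked calls the ratio was 0.957 (Fisher's exact p = 0.0895).

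**Figure D1:**
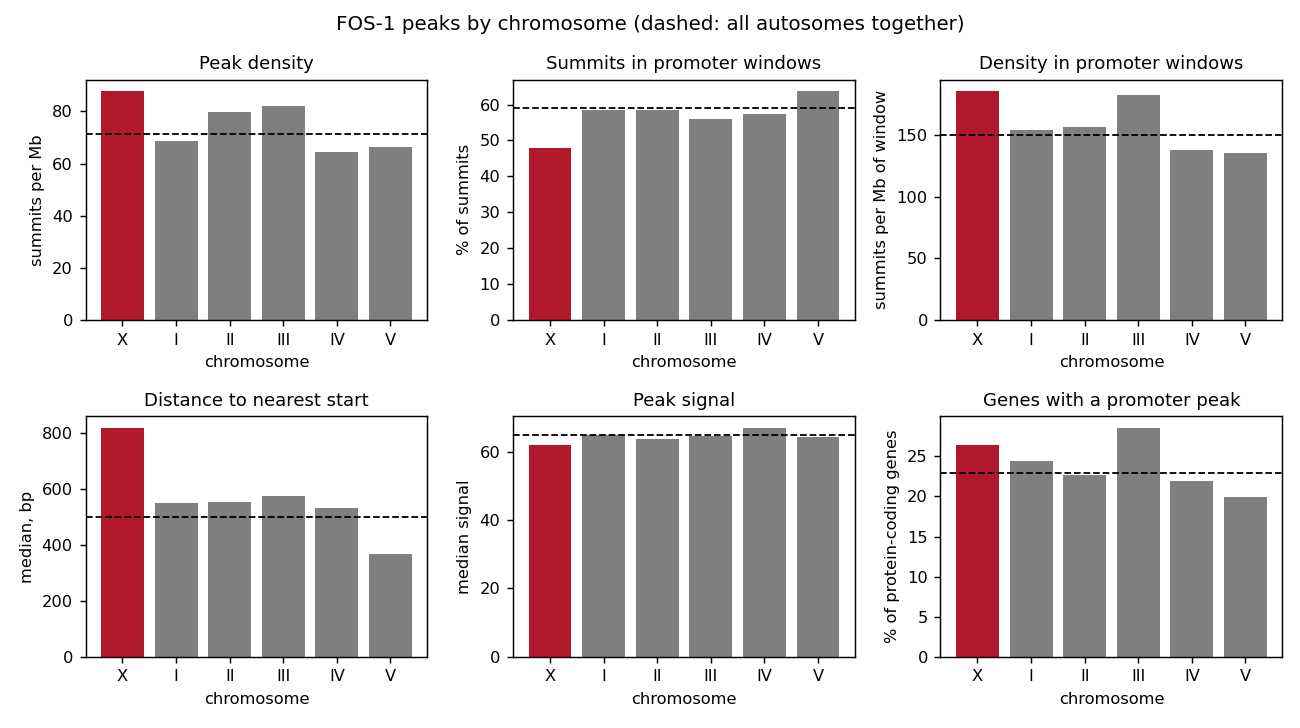
Measures of FOS-1 peaks, 1 bar per chromosome with X in red at the left and a dashed line at the value of all autosomes together. X has the highest density (87.8 summits per Mb), the lowest promoter share (47.9%) and the longest median distance to a start (818 bp), while its median signal (62.0) is close to that of the autosomes (64.9).

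The summits of X lay less often in promoters than autosomal ones and more often in coding exons, introns, genes without a protein product and intergenic sequence. Promoter windows reached 1000 bp upstream and 250 bp downstream from each protein-coding transcript start, and each summit was given 1 of 7 classes in a fixed order. On X 745 summits or 47.9% (45.4 to 50.4) were in promoter windows, against 59.02% on the autosomes and 56.1 to 63.7% on single autosomes. The odds ratio was 0.639 (Fisher's exact p = 5.57e-15, adjusted p = 3.9e-14 over 7 classes). Intergenic sequence held 401 X summits or 25.8%, against 21.8% (odds ratio 1.24, exact p = 0.00107, adjusted p = 0.00188). Introns held 264 or 17.0% on X, against 14.5% (odds ratio 1.20, exact p = 0.0186, adjusted p = 0.0260). RNA genes and other genes without a protein product held 68 or 4.37% on X, against 2.00% (odds ratio 2.24, exact p = 5.85e-07, adjusted p = 1.36e-06). This class includes tRNA genes, of which X carries 45.1%. The 3' UTR, with 20 summits on X, and the 5' UTR, with 2, did not pass the test (Fisher's exact adjusted p = 0.252 and 0.239).

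Per base, promoter windows on X held more summits than those on the autosomes. The windows cover 22.7% of X and 28.03% of the autosomes, and they held 185.6 summits per Mb of window on X, against 150.3 on the autosomes. The density ratio was 1.23 (exact binomial p = 3.54e-07, adjusted p = 6.2e-07 over 7 classes). Single autosomes ranged from 135.3 per Mb on chromosome V to 182.4 on chromosome III, so X was above all 5 but close to chromosome III. Introns had a density ratio of 1.53 (exact adjusted p = 2.14e-08) and genes without a protein product 3.18 (exact adjusted p = 8.24e-12). The latter class includes tRNA genes, of which X carries 276 of 612. In windows around tRNA genes the density ratio was 1.40, and the part of tRNA genes in the 3.18 was not tested. Intergenic sequence, which covers 29.3% of X and 19.96% of the autosomes, held 77.2 summits per Mb on X and 78.1 on the autosomes. That ratio of 0.989 did not pass the exact test (adjusted p = 0.876). The share of introns lost its call among the 3723 peaks of highest signal (odds ratio 1.06, Fisher's exact adjusted p = 0.739), and so did the share of intergenic sequence (odds ratio 1.17, adjusted p = 0.187).

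Coding exons outside promoter windows held 55 summits on X, more than on any autosome. They were 3.54% of X summits, against 77 or 1.31% on the autosomes, where single chromosomes had 10 to 27. The odds ratio was 2.77 (Fisher's exact p = 5.34e-08, adjusted p = 1.87e-07). The density was 18.9 per Mb of coding exon on X and 4.92 on the autosomes, a ratio of 3.84 (exact binomial p = 1.8e-12, adjusted p = 8.24e-12). The 55 X summits were nearest to the starts of 53 genes, and 44 of them were strong in both replicates. Their signal had a median of 59.2, with a range of 34.2 to 203.8, against a median of 65.2 for the autosomal ones. A GATA site lay at 36 of the 55 on X and at 64 of the 77 on the autosomes. Among low-ranked calls the odds ratio for coding exons was 0.966 (Fisher's exact adjusted p = 0.621).

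**Figure D2:**
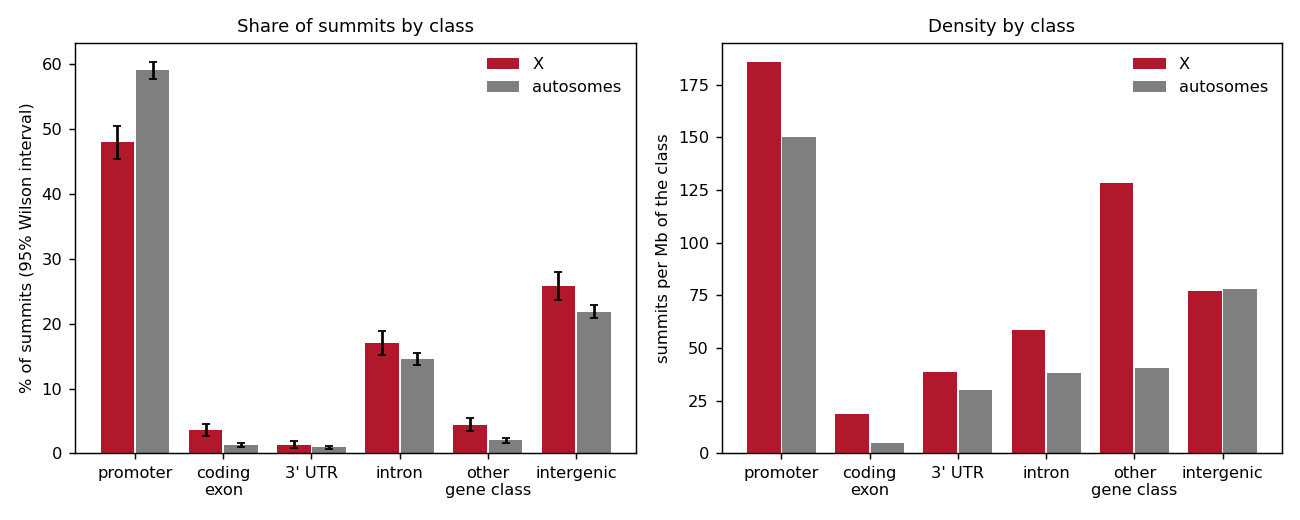
Annotation classes with at least 10 X summits, X in red left of the autosomes in grey. The left panel gives the share of summits with Wilson intervals and the right panel summits per Mb of the class. Promoters hold 47.9% of X summits and 59.02% of autosomal ones, yet 185.6 and 150.3 summits per Mb of window, and coding exons hold 18.9 and 4.92 per Mb.

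X summits were farther from transcript starts than autosomal ones, on a chromosome with fewer genes for its length. X holds 154.1 protein-coding genes per Mb and the autosomes 208.9. Distances of summits were not compared with those of all bases, so the part of gene density in them was not tested. The median distance to the nearest protein-coding transcript start was 818 bp on X (quartiles 236.5 and 2222.5), against 498 bp on the autosomes (152 and 1518), where single chromosomes ranged from 366.5 to 573. More than 2000 bp away lay 424 X summits or 27.3% (25.1 to 29.5), against 19.06% on the autosomes (odds ratio 1.59, Fisher's exact p = 4.91e-12, adjusted p = 2.29e-11). Beyond 5000 bp the counts were 82 or 5.27% on X and 3.90% on the autosomes (odds ratio 1.37, exact p = 0.0188, adjusted p = 0.0329).

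A larger share of X genes than of autosomal genes had a promoter peak. Of 2731 protein-coding genes on X, 723 or 26.5% (24.9 to 28.2) had a summit in a promoter window, against 3958 of 17242 or 22.96% on the autosomes. The share over all chromosomes was 23.4%. The odds ratio was 1.21 (Fisher's exact p = 6.66e-05, adjusted p = 1.55e-04 over the 14 comparisons). Chromosome III, at 28.6%, was above X, and the other autosomes were at 19.98 to 24.4%. At least 2 summits were found for 63 X genes and 343 autosomal genes (odds ratio 1.16, interval 0.887 to 1.53, exact p = 0.274, adjusted p = 0.319). The X genes with the most promoter summits were ajm-1, bet-2 and sgk-1 by the naming rule, and 8 X genes had 3. ajm-1, which encodes a protein of apical junctions, had summits of signal 131.3, 57.8 and 36.8. bet-2, which encodes a bromodomain protein, had 124.5, 105.2 and 66.4.

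The signal of X peaks was like that of autosomal peaks over the whole list, and lower outside promoters. The median was 62.0 on X (quartiles 45.5 and 94.1) and 64.9 on the autosomes (46.5 and 95.6). The fifth of highest signal held 300 X peaks or 19.3%, against 20.2% of autosomal peaks (odds ratio 0.945, interval 0.821 to 1.09, Fisher's exact p = 0.454, adjusted p = 0.489). Among summits outside promoter windows it held 130 of 810 on X or 16.05%, against 20.2% (odds ratio 0.755, exact p = 0.00985, adjusted p = 0.0197). Among promoter summits it held 170 of 745 on X or 22.8%, against 20.2% (odds ratio 1.17, exact p = 0.110, adjusted p = 0.172). The ratio of these odds ratios was 1.55 (exact test of equal odds ratios, p = 0.00299). From the fifth of highest to the fifth of lowest signal, the promoter share of X summits was 56.7, 51.0, 45.6, 43.7 and 43.4%. X had 1 of the 10 strongest peaks of the list, 2 of the 20, 10 of the 50, 25 of the 100 and 98 of the 500 strongest. Its share of the 500 was 19.6%, and its share of all peaks was 20.9%.

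The AP-1 site and the GATA site were about as frequent on X as on the autosomes. Patterns were counted on both strands within 50 bp of each summit, and in equally wide flanking windows centred 300 bp upstream and downstream. The AP-1 site, TGACTCA or TGAGTCA, lay at 54 X summits or 3.47%, against 3.56% (odds ratio 0.973, interval 0.718 to 1.32, Fisher's exact adjusted p = 0.939 over 8 patterns). The GATA site, bound for example by the intestinal factor ELT-2, was searched as GATA with A or T before it and A or G after it. It lay at 840 X summits or 54.02%, against 52.6% (odds ratio 1.06, interval 0.946 to 1.18, exact adjusted p = 0.531). Within 100 bp the odds ratio was 1.17 (exact adjusted p = 0.0149). At least 3 GATA sites lay at 85 X summits or 5.47%, against 6.18% on the autosomes. The E-box CACGTG lay at 59 X summits or 3.79%, against 4.02% (odds ratio 0.941, interval 0.703 to 1.26, exact adjusted p = 0.818). Of all windows of that width, the AP-1 site is in 1.09% on X and 0.857% on the autosomes, the GATA site in 21.4 and 19.5%, and the E-box in 1.32 and 1.74%.

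Other patterns were less frequent at X summits. GACGCAGA lay at 43 X summits or 2.77% (2.06 to 3.70), against 354 or 6.01% on the autosomes. Its odds ratio of 0.445 passed the test (Fisher's exact p = 7.91e-08, adjusted p = 6.33e-07). GAGAGAG lay at 115 or 7.40% on X, against 10.5% (odds ratio 0.683, exact p = 2.22e-04, adjusted p = 8.88e-04). The extended GATA site TGATAAG, which contains a GATA site, lay at 303 or 19.5% on X, against 23.7% (odds ratio 0.779, exact p = 4.08e-04, adjusted p = 0.00109). GACGCAGA and TGATAAG were picked earlier from a ranking of short sequences on these same peaks, of which 5891 of 7446 are autosomal. That choice can favour patterns of autosomal summits, and its part in these odds ratios was not tested. The shares of all windows that hold the patterns also differ between X and autosomes, at 0.263 and 0.534% for GACGCAGA, 1.25 and 1.39% for GAGAGAG, and 1.77 and 1.71% for TGATAAG. Relative to flanking windows, X and autosomes did not differ past the threshold for any of these. The centre held 7.82 times the share of the flanks on X and 12.2 times on the autosomes for GACGCAGA (likelihood ratio adjusted p = 0.419, exact 0.429). The ratios were 6.22 and 7.09 for GAGAGAG (likelihood ratio adjusted p = 0.491, exact 0.538) and 11.2 and 13.6 for TGATAAG (0.405, exact 0.408).

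The odds ratios of GACGCAGA and GAGAGAG were lower outside promoters than inside them. Outside promoters GAGAGAG lay at 47 of 810 X summits or 5.80%, against 12.8% (odds ratio 0.421, Fisher's exact adjusted p = 7.06e-08). In promoter windows it lay at 9.13% on X and 8.89% on the autosomes (odds ratio 1.03, exact adjusted p = 0.953). These odds ratios differed (exact test of equal odds ratios, adjusted p = 2.27e-04 over 8 patterns). GACGCAGA lay at 12 of 810 X summits outside promoters or 1.48%, against 5.72% (odds ratio 0.248, exact adjusted p = 2.65e-07). In promoter windows it lay at 4.16% on X and 6.21% on the autosomes (odds ratio 0.655, exact adjusted p = 0.197), and the odds ratios differed here too (exact adjusted p = 0.0207). For TGATAAG the odds ratio was 0.715 outside promoters and 0.818 inside them, and these did not differ past the threshold (exact adjusted p = 0.404). The AP-1 site had an odds ratio of 1.36 outside promoters and 0.637 inside them. These did not differ past the threshold by the exact test (adjusted p = 0.0568), although they did by the likelihood ratio test (adjusted p = 0.0365), with neither past the threshold by itself (Fisher's exact adjusted p = 0.249 and 0.211).

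The CRE site TGACGTCA, which other bZIP dimers bind, lay at 14 X summits or 0.90%, against 47 or 0.798% (odds ratio 1.13, interval 0.620 to 2.06, Fisher's exact adjusted p = 0.818). It lay in 4 of 3110 flanking windows on X and in 79 of 11782 on the autosomes. The centre therefore held 7.0 times the share of the flanks on X and 1.19 times on the autosomes (likelihood ratio adjusted p = 0.00830, exact adjusted p = 0.0133). The site is in 0.359% of all windows on X and 0.593% on the autosomes. The ratio of 7.0 rests on the 4 flanking windows on X, a share of 0.129% that is below that of all X windows. Among low-ranked calls the odds ratio for the CRE site was 0.509 (Fisher's exact adjusted p = 0.00890), a direction opposite to 1.13. For the AP-1 site the centre held 2.20 times the share of the flanks on X and 3.89 times on the autosomes (likelihood ratio adjusted p = 0.0550, exact adjusted p = 0.0700).

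**Figure D3:**
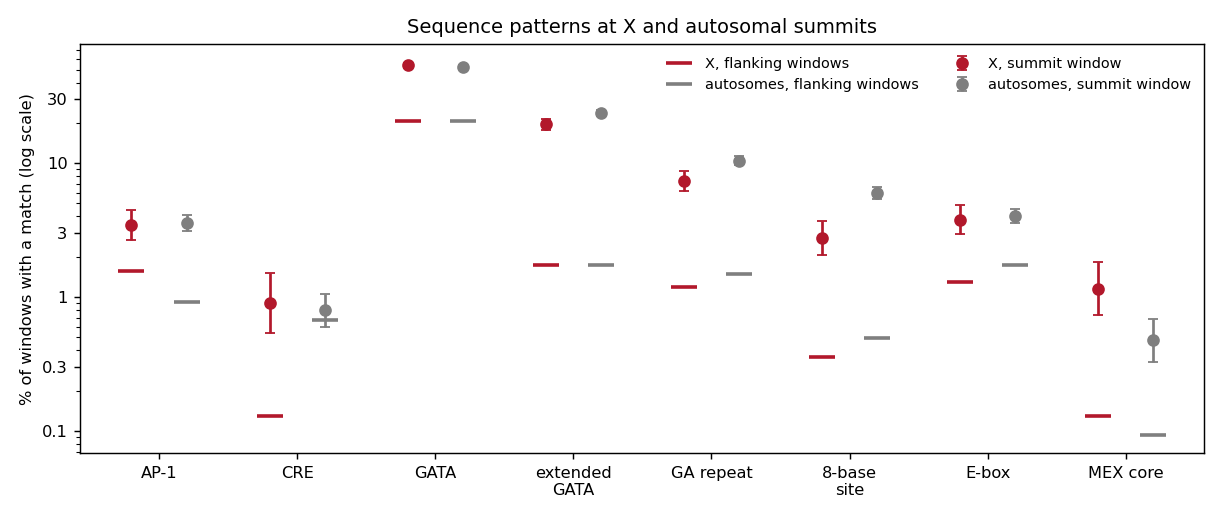
Share of windows with each pattern on a log scale, X in red left of the autosomes in grey. Points with Wilson intervals are windows within 50 bp of summits and dashes are flanking windows. GA repeat stands for GAGAGAG and 8-base site for GACGCAGA. The GATA site is at 54.02 and 52.6% of summits, and the MEX core at 1.16% on X and 0.475% on the autosomes.

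The MEX core was more frequent at X summits, and 13 of the 18 X peaks that held it were in the fifth of highest signal. CGCAGGG lay within 50 bp of 18 X summits or 1.16% (0.733 to 1.82), against 28 or 0.475% (0.329 to 0.686) on the autosomes. The odds ratio was 2.45 (exact p = 0.00527, adjusted p = 0.0105). The core is in 0.156% of all windows on X and 0.152% on the autosomes. The centre held 9.0 times the share of the flanks on X, from 4 of 3110 flanking windows, and 5.09 times on the autosomes, which did not differ past the threshold (likelihood ratio adjusted p = 0.491, exact adjusted p = 0.538). The difference in share was found outside promoters, where 14 of 810 X summits or 1.73% had the core, against 5 autosomal summits or 0.207% (odds ratio 8.47, exact adjusted p = 3.06e-05). In promoter windows it was at 4 X summits or 0.537%, against 23 or 0.661% (odds ratio 0.811, exact adjusted p = 1). These odds ratios differed (exact adjusted p = 0.00695).

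The 18 X peaks with a MEX core had signals of 57.1 to 340.3, with a median of 218.9, against 34.3 to 305.9 and a median of 73.0 for the 28 autosomal ones. Outside promoters the medians were 225.4 for the 14 X peaks and 63.2 for the 5 autosomal peaks, the highest of which was at 86.9. Of the 18 X peaks, 13 were in the fifth of highest signal of the whole list, as were 8 of the 28 autosomal ones. Of X peaks without the core, 287 of 1537 or 18.7% were in the fifth of highest signal. The signals of these peaks were compared after their values were seen, so no test is given. Among the 50 strongest X peaks 25 were outside promoters, and 9 of those held the core. The values of the strongest of these X peaks were high in both replicates. The peak nearest to W02H3.3, in intergenic sequence 4003 bp from the start, had a signal of 340.3 in the IDR list, 198.3 in replicate 1 and 142.3 in replicate 2. The peak nearest to gtr-1, also intergenic, had 318.0, 212.95 and 109.8 in the same order. The weakest, nearest to cah-3, had 37.4 in replicate 1 and 17.7 in replicate 2. The medians of X peaks with a call in both replicates were 43.7 and 20.4.

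The other strong peaks with a MEX core lay along the whole of X. In an intron of mom-1, which encodes the porcupine protein of Wnt secretion, the signal was 258.4. Upstream of xol-1, the gene that sets male or hermaphrodite fate, an intergenic summit at 8036376 had a signal of 222.0, with 140.1 in replicate 1 and 85.1 in replicate 2. It was 4937 bp from the nearest start of xol-1 and outside its promoter window. Promoter peaks with the core were those of nspc-17 (260.6), of the insulin-like peptide gene ins-39 (215.9), of the linker histone gene his-24 (149.3) and of the nuclear receptor gene nhr-48 (102.0). The weakest were at dlg-1 (59.9), which encodes a scaffold protein of epithelial junctions, and nearest to cah-3 (57.1), a carbonic anhydrase gene. An intron of Y41G9A.17 held 2 of the 18 summits, at 2997125 (signal 244.1) and 2997330 (signal 64.1), in calls that overlap, so these are not independent regions.

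The bases before the core were also alike in these X peaks. TCG stood directly before the core in 9 of the 18, ATCG in 7, and A directly after it in 11. X has 301 matches to the core and the autosomes 1329, or 17.0 and 16.1 per Mb. Of these, 20 on X or 6.64% had their centre within 50 bp of a summit, against 30 or 2.26% on the autosomes (odds ratio 3.08, Fisher's exact p = 2.83e-04). This comparison was not planned, was not adjusted, and covers largely the same peaks as the counts per summit. It does not allow for the higher summit density on X, 87.8 per Mb against 71.4 on the autosomes. Of 19 matches on X that follow TCG, 10 or 52.6% were at a summit. The autosomes have 6 matches that follow TCG and none was at a summit, which allows a share of up to 45.9% (exact Clopper-Pearson bound). The bases TCG were chosen after the sequences were seen, and that comparison has no test. CGCAGGG is only the core of the MEX motif. The bases around it were not compared with the rest of the motif, so their likeness is not shown to be a separate feature.

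**Figure D4:**
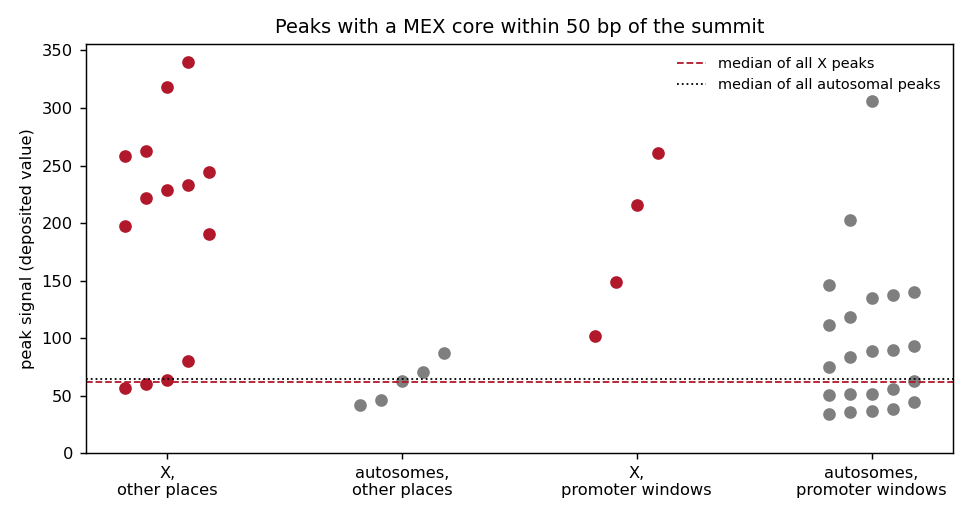
Signal of each peak with a MEX core within 50 bp of its summit, 1 point per peak, for X (red) left of the autosomes (grey), outside and inside promoter windows. Lines mark the medians of all X peaks (62.0) and all autosomal peaks (64.9). The 14 X peaks outside promoters reach 340.3, while the 5 autosomal ones lie between 41.9 and 86.9.

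Summits next to tRNA genes were 129 or 8.30% of the X summits, against 2.02% on the autosomes. The odds ratio was 4.39 (Fisher's exact p = 2.79e-28, adjusted p = 3.9e-27 over the 14 comparisons). A summit was counted when it lay within 250 bp of the gene, and X alone had 52.02% of all such summits. X carries 276 of 612 annotated tRNA genes or 45.1%. Of these, 145 or 52.5% had a summit nearby, against 124 of 336 or 36.9% on the autosomes (odds ratio 1.89, Fisher's exact p = 1.19e-04). Per base of the windows around tRNA genes the density was 906.6 summits per Mb on X and 649.5 on the autosomes, a ratio of 1.40 (exact binomial p = 0.0104). Neighbouring tRNA genes can share a summit. The median signal of these peaks was 53.7 on X and 56.0 on the autosomes. None of the 8 patterns lay at 95 of the 129 X summits, against 535 or 34.4% of all X summits, and 98 of the 129 were outside promoter windows of protein-coding genes.

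FOS-1 summits were spread over the whole of X with the fewest at its left end. With X divided by length into 3 equal parts, the left part held 432 summits, the centre 588 and the right part 535, or 73.1, 99.6 and 90.6 per Mb. The outer parts together held 967 or 62.2% (59.7 to 64.6), against 66.7% of bases (ratio 0.933, exact binomial p = 2.28e-04). This test treats summits as independent, but counts in 1 Mb bins had a variance 4.38 times their mean. The call may not hold with that spread taken into account, which was not tested. On the autosomes the outer parts held 55.2% of summits, so X summits were more often in the outer parts than autosomal ones (odds ratio 1.34, Fisher's exact p = 6.38e-07, adjusted p = 1.79e-06). With low-ranked calls on X in place of bases, the ratio for the outer parts of X was 0.976 and did not pass (exact p = 0.284). Protein-coding genes with a promoter peak were 25.7% of the genes of the left part, 28.3% of the centre and 25.2% of the right part.

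In bins of 1 Mb the density ran between 48 and 121 summits per Mb, with a median of 88.5 over 18 bins. The first and second bins from the left end had 51 and 48, and bins 14, 7 and 11 had 121, 116 and 111. Across bins, the counts had a Pearson's r of 0.411 with gene starts and of 0.600 with the share of bases in promoter windows. Counts of the strongest calls of replicate 1 and replicate 2 per bin had an r of 0.938. The bins share their libraries, and these are descriptions. The longest stretch without a summit was 253721 bp, from 1627136 to 1880857, and 43 protein-coding genes start in it. Among 178 bins of 100 kb, 3 were empty, and the fullest, from 11400001 to 11500000, held 24.

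**Figure D5:**
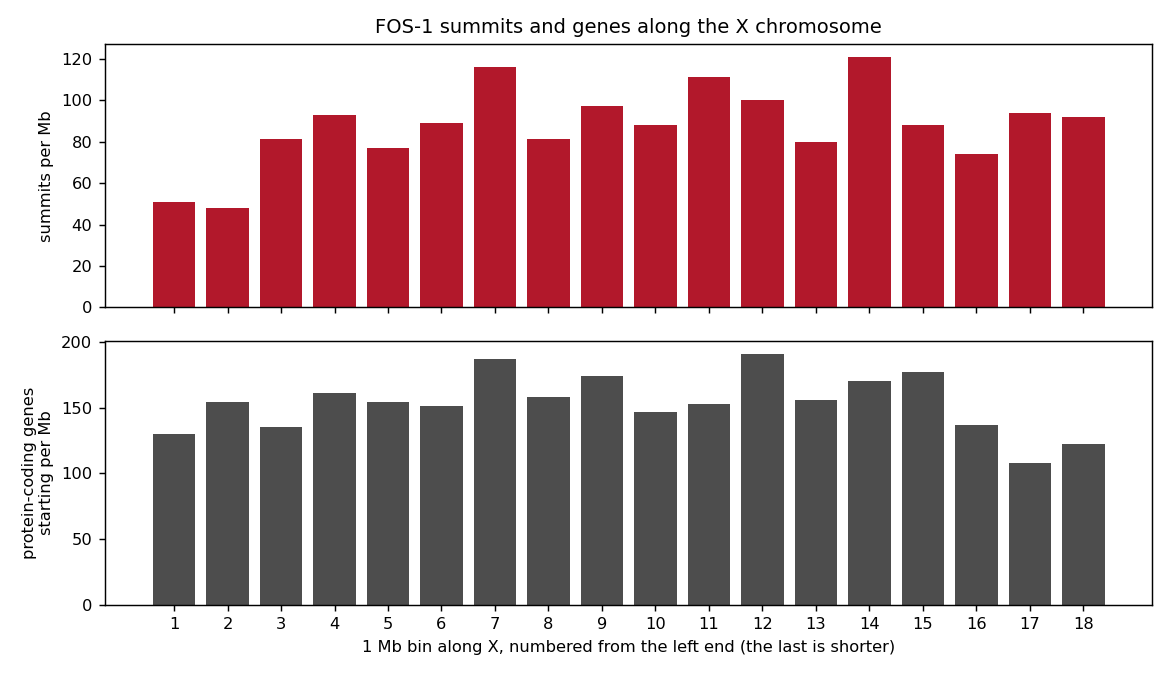
Summits per Mb (upper panel, red) and protein-coding genes starting per Mb (lower panel, grey) in 1 Mb bins numbered from the left end of X. The first and second bins have 51 and 48 summits per Mb, below all others, which have 74 to 121.

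Summits on X came in short runs about as often as on the autosomes. Another summit lay within 2000 bp of 697 X summits or 44.8%, against 43.2% on the autosomes (odds ratio 1.07, interval 0.956 to 1.20, Fisher's exact p = 0.239, adjusted p = 0.304). When summits spaced 2000 bp or less were joined, 858 X summits stood alone, 189 runs held 2 and 5 runs held 6, the longest on X. A run of 6 spanned 2529 bp at gpd-2 and mai-1, glycolytic and mitochondrial genes of 1 operon, with a highest signal of 50.2. Another spanned 6719 bp at yap-1, which encodes the worm YAP coactivator, and phf-31, with a highest signal of 146.4. The remaining runs of 6 were at ZK470.2 and ZK470.4, at F49E2.5 and at M163.1. Of the X peaks 31 overlapped another peak of the list, so neighbouring summits can belong to 1 broad call.

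The strongest X peak, which was also the strongest of the whole list, was at cebp-1, a C/EBP gene known for axon regeneration. Its signal was 702, with 497.7 in replicate 1 and 207.3 in replicate 2, and its summit at 1454649 was 781 bp upstream of the start. A second promoter summit of cebp-1 had a signal of 131.1. The next promoter peaks on X were those of puf-9, a Pumilio gene that acts in developmental timing (304.8), sir-2.2, a mitochondrial sirtuin gene (285.9), F20D1.3 (283.4), K06G5.1 (273.3) and abhd-3.2 (271.5). In replicates 1 and 2 the puf-9 peak had signals of 205.2 and 107.0, and the F20D1.3 peak 204.6 and 85.3. In an intron of ncr-1, which encodes a homologue of the Niemann-Pick C1 sterol transporter, a summit had 275.1, with 186.6 in replicate 1 and 87.5 in replicate 2. Intergenic peaks without a MEX core among the 12 strongest were nearest to ZK899.6 (303.3) and F19H6.5 (275.9). The weakest peak of the list on X had a signal of 34.0.

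Genes of sex determination and dosage compensation on X had promoter peaks at 2 of 6 listed members, against 2 of 15 on the autosomes. The list shares below are to be read against 26.5% of all X genes and 23.4% of all genes, and the lists are too small for a statement about any of them. sdc-2, whose protein directs the dosage compensation complex to X, had a summit 454 bp upstream of its start, with a signal of 98.9, 58.7 in replicate 1 and 40.9 in replicate 2. sdc-1, a zinc finger gene of the same pathway, had a signal of 64.9, but 59.02 in replicate 1 and 4.71 in replicate 2. No promoter summit was found at xol-1, sex-1, fox-1 or ceh-39.

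Transcription factor genes on X included members of 4 listed families. All 3 X-linked bZIP genes had a promoter peak, as did 17 of 23 on the autosomes. Beside cebp-1 these were atf-4 of the integrated stress response, with a signal of 132.4 (85.6 in replicate 1 and 46.9 in replicate 2), and atf-6 of the unfolded protein response, with 89.95. GATA factor genes had a peak at 3 of 4 on X and 1 of 7 on the autosomes. elt-2, the main GATA factor gene of the intestine, had 166.6 (104.7 and 62.0 in replicates 1 and 2), its neighbour elt-4 had 75.01, and elt-3 of the epidermis had 38.7, while med-1 had none. Nuclear hormone receptor genes had a peak at 14 of 23 on X, led by nhr-1 with 131.8, and at 83 of 246 on the autosomes. The ceh homeobox genes had a peak at 3 of 18 on X, of which ceh-60, a PBX gene, was the strongest with 77.2, and at 7 of 45 on the autosomes.

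Signalling genes on X had peaks at some members of each pathway. Of EGF and Ras genes 4 of 7 on X had one, and 6 of 15 on the autosomes. The strongest was at sem-5, the worm GRB2 adaptor gene (138.6), and that at sli-1, a Cbl gene that dampens the pathway, had an AP-1 site and a signal of 61.4. Insulin and TOR genes had a peak at 2 of 4 on X and 4 of 11 on the autosomes, and both on X encode kinases, akt-2 (105.2) and sgk-1 (88.6). Of MAP kinase genes 2 of 5 on X had one, mek-1 (60.2) and mig-15 (43.8), and 11 of 14 on the autosomes. TGF-beta and steroid hormone genes had a peak at 3 of 5 on X and 9 of 15 on the autosomes. These were sma-9, a Schnurri gene (164.7), lon-2, a glypican gene that restrains BMP signalling (112.6), and daf-3, a Smad gene (109.6). Heterochronic genes had a peak at 3 of 5 on X and 5 of 7 on the autosomes, among them puf-9 and lin-14, which sets early larval fates (81.7).

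Genes of the basement membrane and its receptors had a peak at 2 of 9 on X, lon-2 and the dystroglycan gene dgn-1 (100.02), and at 4 of 12 on the autosomes. Neither let-2, a collagen IV gene, nor lam-2, the laminin gamma gene, nor him-4, the hemicentin gene, had one. Of 3 X genes reported to depend on fos-1, only egl-13, a SOX gene, had promoter summits, with signals of 86.2 and 81.0, and him-4 and plc-1 had none. On the autosomes 1 of 5 had a promoter summit. The stronger egl-13 summit, at 5671011, lay inside the gene (5663837 to 5674067), 354 bp upstream of its nearest transcript start. A summit at 9737792 (signal 60.7), in the promoter window of F15G9.5, lay within the him-4 gene (9717565 to 9753764). The larvae were sampled whole, so fewer bound cells and less binding per cell cannot be told apart.

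The 5 listed intestine markers on X all had a peak, and the 6 listed body wall muscle markers and 4 listed panneuronal genes had none. The 5 of 5 intestine markers were elt-2, pept-1, a peptide transporter gene (142.3), glo-1, spp-5 and pgp-3, and on the autosomes 10 of 14 had one. Epidermis markers had a peak at 2 of 3 on X, nhr-25 (52.8) and elt-3, and at 1 of 11 on the autosomes. Body wall muscle markers had 0 of 6 on X, which allows a share of up to 45.9% (exact Clopper-Pearson bound), and 3 of 15 on the autosomes. Panneuronal genes had 0 of 4 on X, which allows up to 60.2%, and 3 of 15 on the autosomes. The vitellogenin genes, which the adult intestine expresses for yolk, had 0 of 5 on X, which allows up to 52.2%, and 0 of 1 on the autosomes. Acetylcholine receptor subunit genes had 0 of 6 on X and 0 of 15 on the autosomes.

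Among the larger lists, few of the listed neuropeptide, collagen and chemoreceptor genes had a peak, both on X and on the autosomes. Neuropeptide genes had a peak at 1 of 34, which was ins-39, and at 8 of 106 on the autosomes. Cuticle collagens had 1 of 27 on X, col-185 (71.9), and 13 of 129 on the autosomes, and chemoreceptor genes 1 of 33 on X, srd-44 (45.8), and 39 of 1266. F-box genes had 1 of 16 on X, fbxa-190 (90.2), and 60 of 299 on the autosomes. Cytochrome P450 genes had 1 of 7 on X, cyp-43A1 (68.8), and 27 of 67. UDP-glycosyltransferase genes had 3 of 4, led by ugt-46 (159.8), and 29 of 63 on the autosomes, and glutathione transferase genes 2 of 3, led by gst-42 (125.3), and 13 of 41. C-type lectin genes had 2 of 3 on X, with clec-265 at 261.2, and 47 of 234 on the autosomes. Only 2 of 77 cytosolic ribosomal protein genes are on X. Of these rpl-11.2 had a peak (195.5), and 67 of 75 on the autosomes did.

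MicroRNA genes on X had a summit in the same window around their start at 19 of 74 or 25.7%, against 49 of 187 or 26.2% on the autosomes. The strongest, with a signal of 165.2 and an E-box, had its summit at 13145402 and lay upstream of the cluster of cel-mir-54, cel-mir-55 and cel-mir-56. A summit at 11791797 with a signal of 150.8 lay between cel-mir-239a and cel-mir-239b, which are read in opposite directions. These clustered genes share their summits, so they do not count as separate cases. Single peaks were found 23 bp upstream of cel-mir-63 (98.9), 518 bp upstream of cel-mir-84 (57.1) and 286 bp upstream of cel-mir-237 (41.9).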

How the data were processed

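The deposited files are peak lists of eGFP::FOS-1 ChIP-seq in 2 replicates of 1 group. Per the manifests deposited with them, relaxed calls were made from each replicate's alignment with a control and from both replicates pooled. The IDR list was made by the authors from both replicates. The deposited signal of each peak is the value of the authors' peak caller and is not normalized between lists, and the deposited −log10 q-value is 4.25 for every IDR peak, so peaks were ranked by signal. The aligner, peak caller and their versions were not given in the sources used. The control was not analysed here, and depth is unknown. The summit offset (an other value) was taken as deposited by the authors. For 3 peaks, 1 of them on X, it falls outside the peak.

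Lists on ce11 were matched to WBcel235 and Ensembl release 115, and the ce10 list served as an alternative. X and autosomal peaks were compared by Fisher's exact test, counts with bases by exact binomial tests, and 2 odds ratios with each other by an exact conditional test of homogeneity and a likelihood ratio test in a logistic model, with Benjamini-Hochberg adjustment in each family, all two-sided. Intervals are Wilson (shares) or Woolf (odds ratios). Promoter windows reached 1000 bp upstream and 250 bp downstream. Low-ranked calls are the 20145 pooled calls that overlap no IDR peak by 1 bp. Overlap with a replicate also needed 1 bp. The tests were run on simulated data first. Python 3.11.15, NumPy 2.4.6, SciPy 1.17.1, statsmodels 0.14.6 and matplotlib 3.10.9 were used.

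Members, patterns and the 29 gene lists were chosen with earlier results of these data known. Genes are named when nearest to the 12 strongest X peaks, for the 2 strongest X members per list, for the most promoter summits (3 genes), or as elt-2, egl-13, xol-1 or sdc-2; other genes named, such as those at MEX cores, runs and microRNAs, were chosen after their values were seen. Alternatives were a stricter list, each replicate alone, low-ranked calls, ce10, other windows and summits inside or outside promoters.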

Additional observations from a re-analysis of the deposited data

How the results depend on the processing

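Over 23 results and 136 alternatives, 106 kept direction and side of the threshold, 9 lost the call, 3 gained one and 18 turned direction, 12 of these with neither value past the threshold. The cause was not tested. The CRE site was not among the 23 results. With low-ranked calls as background, X over bases was 0.957, and the outer parts of X 0.976 (call lost). Among the low-ranked calls themselves the intergenic density ratio to the autosomes was 1.18, a direction opposite to 0.989, and the odds ratio was 0.962 for introns, 0.966 for coding exons, 0.925 for the extended GATA site (call lost) and 1.11 for the GATA site (call gained). In the 3723 peaks of highest signal, introns (1.06), intergenic sequence (1.17) and GAGAGAG (0.762) lost their calls. Introns also lost theirs with a window of 500 bp upstream (1.12), and the GATA site gained one within 100 bp (1.17). In promoter summits alone the extended GATA site (0.818) and GACGCAGA (0.655) lost their calls, and GAGAGAG (1.03) and the MEX core (0.811) turned. Outside promoters the fifth of highest signal gained a call (0.755). Of the 12 turns without a call, the AP-1 site gave 1.22 among low-ranked calls, 1.36 outside promoters and 0.834 to 1.06 with a replicate left out, and the GATA site 0.889 in the 3723 strongest peaks, 0.960 outside promoters and 0.979 to 1.13 with a replicate left out. Intergenic density was 1.12 with 2000 bp upstream and 0.972 to 1.01 with a replicate left out, and the fifth of highest signal 1.17 in promoters. Neighbours within 2000 bp gave 0.898 in the 3723 strongest peaks, and calls strong in both replicates 0.991 with a larger overlap required and 0.909 with fewer calls. Leaving out a replicate gave 0.751 to 0.867 for the extended GATA site, whose call was lost without replicate 2 (exact adjusted p = 0.0649), and ended no other call. Alternatives for coding exons were chosen after seeing the data. No paired analysis was possible because there is 1 group. Depth is unknown, so a gene without a peak is not shown to be unbound, and shares on X cannot be corrected for X copy number.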
